A study of Mus musculus with 13 samples.

Results

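Inflammasomes are the caspase-1 activating complexes of innate immunity, and 10 genes of this pathway were followed in Lin-cKit+ bone marrow (BM) cells of mice with mutant Nras, mutant p53, or both. The genes were the sensors Nlrp3, Nlrc4, and Nlrp1b, the adaptor Pycard, the caspases Casp1 and Casp4, the pore former Gsdmd, the cytokines Il1b and Il18, and Txnip. They were listed by name, not by their values, although earlier results of these data were known. They were looked up among the 54838 genes of the raw count table through their Ensembl identifiers. All 10 were in the table, and all 10 were among the 17795 genes that passed the filter on low counts and were tested.

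A sensor of the NLR family detects microbial products or cell damage, recruits the adaptor ASC, which Pycard encodes, and so brings caspase-1 molecules together until they activate each other. Caspase-1 then cuts the precursors of IL-1β and IL-18 into active cytokines and cuts gasdermin D, whose fragment forms pores through which the cytokines leave and the cell may die by pyroptosis. In myeloid cells the supply of Nlrp3 and Il1b mRNA is itself inducible, usually through NF-κB, whereas Pycard, Casp1, and Gsdmd mRNA are made without a stimulus. Messenger RNA levels therefore describe the parts at hand, and not whether the complex is assembled or the cytokines are cut.

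RNA came from 50000 sorted Lin-cKit+ BM cells per mouse, the fraction without mature lineage markers that holds stem and progenitor cells. All 13 mice carried Mx1-Cre, a recombinase gene whose promoter responds to interferon. The 3 control mice carried Mx1-Cre alone, the 3 p53mut mice also carried one p53 R172H allele (p53 R172H/+), the 3 NrasG12D mice one Nras G12D allele, and the 4 NPmut mice both alleles. The NrasG12D mice are named so in their titles, while their genotype field reads Nras G21D/+. Control, p53mut, and NrasG12D mice were age-matched and had been injected 3 times with 100 μg pI-pC, an RNA mimic of viral infection that raises interferon and so Cre, from about 6 weeks of age. The NPmut mice had received no pI-pC and were moribund, so that genotype, injections, and stage of disease cannot be told apart in any comparison with NPmut mice. Each library was a different mouse.

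Libraries held 12576174 to 29124022 counts on genes. The 4 NPmut mice differed more among themselves than the mice of the other groups, with a median SD of 0.351 over genes on the log2 scale of CPM (counts scaled to library size), against 0.196 to 0.215. NPmut mouse 2, the most deeply sequenced, stood apart from the other 3, with a chi-square per degree of freedom between libraries of 105 to 122, against 23.3 to 37.5 among the others and 10.7 to 20.8 in the other groups (a measure that grows with depth). Kit, the surface receptor used for the sort, was at 505 to 568 CPM in control and 288 to 450 CPM in NPmut mice. Olfactory and vomeronasal receptor genes, which blood cells do not use and whose reads serve here as a measure of background, made up 107 to 198 CPM in control, 62.0 to 144 in p53mut, 39.2 to 46.5 in NrasG12D, and 18.2 to 59.8 in NPmut mice. NPmut mice did not overlap with control or p53mut mice in this background level. A fit with background as a covariate therefore cannot tell it apart from the group in those comparisons. At that rate per kilobase, background would supply 9.7% of the control counts of Nlrp1b, 7.65% of those of Il1b, 2.97% of those of Il18, 2.02% of those of Nlrp3, and at most 1.16% of those of the other members.

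Nlrp3, Nlrc4, Gsdmd, and Il1b were higher in NPmut than in control mice on average, but only Nlrc4, Gsdmd, and Il1b passed the test, and Il1b was below the control level in 1 of the 4 NPmut mice. Nlrp3 showed a mean difference as large as that of Il1b, with an adjusted p just above the threshold. Pycard, Casp1, Casp4, Nlrp1b, and Il18 did not pass in any of the comparisons. Txnip had another pattern, with levels above every control mouse in all p53mut and NrasG12D mice, and at the control level on average in NPmut mice. Throughout, CPM are scaled by edgeR's TMM factors, fold changes and adjusted p are from edgeR's quasi-likelihood test with Benjamini-Hochberg adjustment over all 17795 genes tested, and a gene past both thresholds has an adjusted p under 0.05 and differs by 2-fold or more.

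Promoter sequences are shown for Il1b and Nlrp3, the members with the largest differences in NPmut mice, and for Txnip, whose levels in both single mutants did not overlap those of control mice. RefSeq windows (GRCm38.p6) were found for 9 of the 10 members (all but Gsdmd), 12 windows in all. Each sequence is the 250 bases upstream of an annotated start, read 5′ to 3′ on the gene's strand. Capitals mark matches, on either strand, to the letters TTGNGNAA (C/EBP), GAGGAA (PU.1), GGGANNNNCC (NF-κB), and TATAAA (which helps place the start) in Il1b and Nlrp3. In Txnip they mark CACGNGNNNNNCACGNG (the carbohydrate response element), GTAAACA (to which FOXO factors bind), and CCAAT (a common promoter box).
Il1b, chr2:129371140-129371389, minus strand: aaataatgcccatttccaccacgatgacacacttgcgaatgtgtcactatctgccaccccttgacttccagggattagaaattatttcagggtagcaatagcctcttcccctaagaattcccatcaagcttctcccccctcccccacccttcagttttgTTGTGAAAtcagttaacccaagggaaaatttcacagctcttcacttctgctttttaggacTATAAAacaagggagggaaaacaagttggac
Nlrp3, upstream start, chr11:59541319-59541568, plus strand: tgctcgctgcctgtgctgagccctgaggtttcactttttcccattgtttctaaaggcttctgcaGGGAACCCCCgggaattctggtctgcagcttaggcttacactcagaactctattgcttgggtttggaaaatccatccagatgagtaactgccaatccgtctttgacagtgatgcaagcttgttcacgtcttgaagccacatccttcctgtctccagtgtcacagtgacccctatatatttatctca
Nlrp3, downstream start, chr11:59542436-59542685, plus strand: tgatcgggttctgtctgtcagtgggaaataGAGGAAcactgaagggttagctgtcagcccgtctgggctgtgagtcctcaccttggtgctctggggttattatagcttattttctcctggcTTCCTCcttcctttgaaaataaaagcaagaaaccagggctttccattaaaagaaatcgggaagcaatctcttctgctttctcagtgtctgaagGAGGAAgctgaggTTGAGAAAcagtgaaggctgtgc
Txnip, chr3:96557707-96557956, plus strand: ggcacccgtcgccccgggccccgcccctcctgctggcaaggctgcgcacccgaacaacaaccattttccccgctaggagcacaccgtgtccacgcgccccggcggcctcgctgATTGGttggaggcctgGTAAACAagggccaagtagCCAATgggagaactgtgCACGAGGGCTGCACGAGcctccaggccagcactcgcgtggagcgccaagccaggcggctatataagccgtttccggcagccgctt

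The C/EBP letters began 91 bases before the start of Il1b and 23 bases before the downstream start of Nlrp3, and were in no window of another member. They were thus in 2 of the 12 windows. Other members also held marked letters: PU.1 in Casp1, Nlrp1b, and Pycard, NF-κB and FOXO in Casp4, and TATAAA in Il18. The CCAAT letters were in Il18 and Nlrp3 as well as in Txnip. C/EBP proteins and PU.1 are myeloid transcription factors. The C/EBP letters are in 11.7% of all 32817 windows, the PU.1 letters in 23.3%, the NF-κB letters in 17.6%, and the letters that help place the start in 12.4%. The carbohydrate response element, a tandem pair of E-boxes bound by MondoA or ChREBP with MLX when glucose is plentiful, began 85 bases before the start of Txnip. Its letters are in 15 of the 32817 windows (0.0457%), whereas the CCAAT letters are in 33.8% and the FOXO letters in 3.16%. The interferon response letters GAAANNGAAA and the AP-1 letters TGANTCA were in 0 of the 12 windows, against 2.97% and 6.75% of all windows. These matches describe the letters of the windows and are not evidence of binding.

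Levels of the members were compared with each other only per kilobase of exon (RPKM, from library totals and exonic lengths). In control mice Txnip was the most abundant (40.4 ± 5.42 RPKM, SD, n = 3), followed by Gsdmd (15.8 ± 0.676 RPKM) and Casp1 (15.6 ± 2.64 RPKM), which overlapped with each other. Pycard stood below them at 7.68 ± 1.03 RPKM, with no overlap with either neighbor. Casp4 and Nlrc4 came next at 3.17 ± 0.766 and 2.22 ± 0.173 RPKM, and their ranges overlapped. Nlrp3, Il18, Il1b, and Nlrp1b had the lowest means, from 1.22 RPKM for Nlrp3 to 0.268 RPKM for Nlrp1b. In NPmut mice Nlrp3 came right after Pycard, at 8.81 ± 5.08 RPKM (n = 4), and its range of 2.76 to 13.2 RPKM overlapped that of Pycard, 5.69 to 17.0 RPKM. The mRNAs for the adaptor, caspase-1, and gasdermin D were thus present in every mouse, whereas Nlrp3 and Il1b had low means in control mice. Exonic length was the union of all annotated exons, 3800 bases for Pycard against 1497 for Casp1 and 2377 for Gsdmd. The order of the members in RPKM, and the place of Pycard in it, therefore depend on the lengths used. In CPM, which ignore length, Pycard was at 24.6 to 32.65 and Casp1 at 19.5 to 27.1 in control mice.

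**Figure D1:**
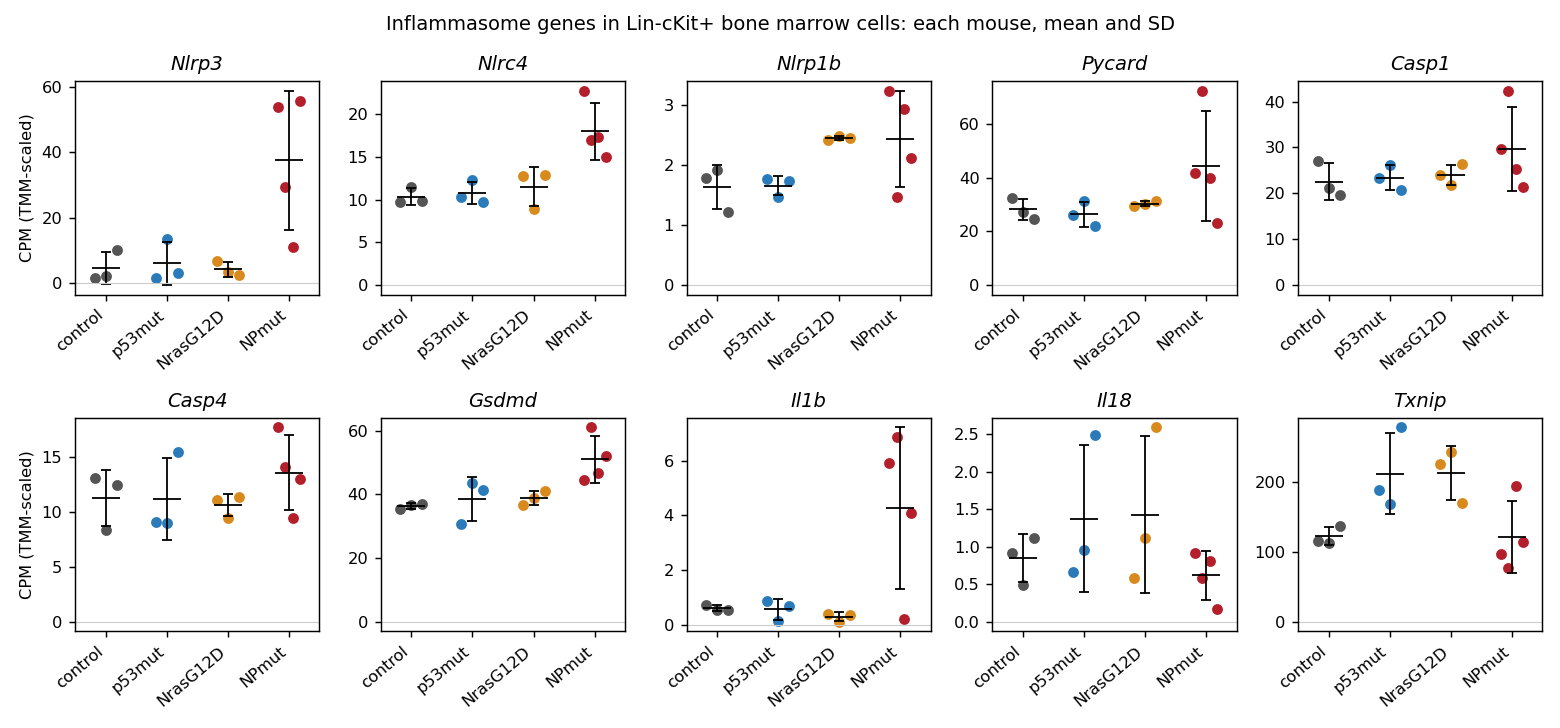
Level of each of the 10 genes in CPM (TMM-scaled, linear axis) for each of the 13 mice, with points for mice and bars for the mean ± SD of a group. Nlrp3, Nlrc4, and Gsdmd are above all control mice in the 4 NPmut mice, Il1b is high in 3 of the 4, and Txnip is above the control mice in all p53mut and NrasG12D mice.

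Among the sensors, Nlrp3 (ENSMUSG00000032691, chr11:59541568-59566956) responds to potassium loss and many forms of damage. Its level was 1.55, 2.29, and 10.3 CPM in the control mice and 53.9, 29.5, 11.2, and 55.6 CPM in the NPmut mice. Every NPmut mouse was above every control mouse, although NPmut mouse 3 exceeded control mouse 3 only slightly. In the single mutants Nlrp3 ran from 1.48 to 13.6 CPM in p53mut and from 2.52 to 6.89 CPM in NrasG12D mice, so that both overlapped with control, and the highest p53mut mouse was above NPmut mouse 3. The log2 fold change in NPmut against control mice was 2.97 (SE 0.893, adjusted p = 0.0566), which did not pass. It passed with DESeq2 (adjusted p = 0.0116), with only genes of at least 10 counts in every library (0.0327), without NPmut mouse 3 (0.0299), and without control mouse 3 (log2 fold change 4.29, adjusted p = 0.0434), and adjusted p lay between 0.0116 and 0.559 over all alternatives.

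Nlrc4 (ENSMUSG00000039193, chr17:74425438-74459142) forms an inflammasome with the NAIP proteins, which bind flagellin and bacterial secretion system proteins. It stood at 9.71, 11.5, and 9.79 CPM in control mice and at 22.7, 17.0, 17.4, and 14.9 CPM in NPmut mice. All 4 NPmut mice were above all control mice. The log2 fold change was 0.80 (SE 0.184, adjusted p = 0.0123), short of a 2-fold change. The call was lost without control mouse 3 (adjusted p = 0.0637) and with background reads as a covariate (log2 fold change 0.89, adjusted p = 0.12). A pseudogene, CT033749.1, lies in Nlrc4 on the same strand and had 1 to 38 counts in NPmut mice, against 176 to 450 for Nlrc4.

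Nlrp1b (ENSMUSG00000070390, chr11:71153102-71230733), the sensor of anthrax lethal factor and of other proteases, was near the detection limit, with 20 to 64 counts per mouse. It was at 1.22 to 1.92 CPM in control, 2.43 to 2.49 CPM in NrasG12D, and 1.47 to 3.23 CPM in NPmut mice. All NrasG12D mice lay above the control mice, but neither difference passed (adjusted p = 0.661 for NrasG12D and 0.286 for NPmut mice). Nlrp1b has close paralogs, between which reads may have been divided.

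Pycard (ENSMUSG00000030793, chr7:127989708-127993867) was at 32.6, 27.4, and 24.6 CPM in control mice and at 41.7, 72.6, 40.1, and 23.1 CPM in NPmut mice. NPmut mouse 2 was highest and NPmut mouse 4 lower than all control mice, so that the groups overlapped and the log2 fold change of 0.66 (SE 0.274) did not pass (adjusted p = 0.147). With single mice left out it ran from 0.31 to 0.86 (adjusted p = 0.0162 to 0.363), so that this result also depended on single mice. The adjusted p then ran from 0.0346 to 0.585 against NrasG12D and from 0.0113 to 0.323 against p53mut mice. Casp1 (ENSMUSG00000025888, chr9:5298517-5307265), the protease of the complex, had the same order of NPmut mice, with 29.6, 42.4, 25.2, and 21.3 CPM, against 19.5 to 27.1 CPM in control mice (log2 fold change 0.40, SE 0.201, adjusted p = 0.23). Casp4 (ENSMUSG00000033538, chr9:5308828-5336783) encodes caspase-11, the receptor for cytosolic lipopolysaccharide. Its range was 8.4 to 13.1 CPM in control and 9.44 to 17.7 CPM in NPmut mice, which overlapped (log2 fold change 0.26, SE 0.243, adjusted p = 0.543).

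Gsdmd (ENSMUSG00000022575, chr15:75862327-75867408), the substrate of both caspases, varied little among control mice, at 35.2, 36.7, and 36.9 CPM. The NPmut mice had 44.3, 61.0, 46.5, and 52.1 CPM. Every NPmut mouse was above every control, p53mut, and NrasG12D mouse. The log2 fold change of 0.49 (SE 0.138) passed the test against control mice (adjusted p = 0.0334), and the SE was the smallest among the members. This call was lost without any 1 of the 3 control mice (adjusted p = 0.0911 to 0.0956), without NPmut mouse 2 (0.0533), with library totals as the only scaling (0.0798), with the compared groups alone in the fit (0.0702), and with background reads as a covariate (0.143).

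Il1b (ENSMUSG00000027398, chr2:129364570-129371139), the precursor of IL-1β, was at 0.747, 0.556, and 0.561 CPM in control mice, from 9 to 13 counts each. In NPmut mice it was at 5.91, 6.87, 0.214, and 4.07 CPM, from 117, 178, 4, and 48 counts. NPmut mice 1, 2, and 4 were far above all mice of the other groups, whereas NPmut mouse 3 was below every control mouse. The log2 fold change in NPmut against control mice was 2.77 (SE 0.80, adjusted p = 0.0396), which was past both thresholds.

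How firmly Il1b was called depended on single mice. Without NPmut mouse 3 its log2 fold change was 3.17 with an adjusted p of 0.0012. The call was lost without any 1 of the control mice (adjusted p = 0.101 to 0.141) or without NPmut mouse 1 (0.0838), 2 (0.0794), or 4 (0.0507). It was also lost with the compared groups alone in the fit (0.0991), with the replicate number as a block (0.0892), and with background reads as a covariate (log2 fold change 1.52, adjusted p = 0.515). In CPM from library totals, without TMM factors, Il1b reached the filter's level of 0.598 CPM in 2 control, 2 p53mut, 0 NrasG12D, and 3 NPmut mice. An antisense gene, Il1bos, overlaps Il1b and had 2 to 7 counts in NPmut and 11 to 27 in control mice, and without a stated strand setting in the counting the reads of the pair cannot be told apart with certainty.

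Il18 (ENSMUSG00000039217, chr9:50554827-50581840), the other cytokine precursor, had 2 to 43 counts per mouse. It was at 0.494 to 1.12 CPM in control and 0.17 to 0.91 CPM in NPmut mice. One p53mut and one NrasG12D mouse, number 3 in both groups, reached 2.49 and 2.59 CPM. No comparison passed, and its log2 fold change in NPmut against control mice was -0.42 (SE 0.625, adjusted p = 0.722), so that a difference was not detectable at this depth.

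Txnip (ENSMUSG00000038393, chr3:96557957-96561883) encodes an α-arrestin that binds thioredoxin and limits glucose uptake, and that has been reported to bind NLRP3 under oxidative stress. It was at 116, 113, and 136 CPM in control mice, at 188, 168, and 277 CPM in p53mut mice, and at 226, 242, and 169 CPM in NrasG12D mice. All 6 single-mutant mice were above all 3 control mice. NPmut mice had 97.2, 76.6, 194, and 113 CPM, so that mouse 3, the one with low Il1b, was the only NPmut mouse in the range of the single mutants. Its antisense neighbor Gm15441 had 4 to 31 counts per mouse, against 1332 to 4791 for Txnip.

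Against control mice the log2 fold change of Txnip was 0.80 (SE 0.288) in p53mut and 0.80 (SE 0.288) in NrasG12D mice, and neither passed in the fit of all 13 mice (adjusted p = 0.9998 and 0.391). Control and p53mut mice with the same replicate number deviated together, and a fit of these 6 mice with the number as a block gave 0.77 (SE 0.0856, adjusted p = 0.00036), where 56 of 16685 genes passed (0.336%). This pairing was picked from these same data and is not given by the labels, so that the blocked fit is not independent support. The same block in the fit of all 13 mice did not change the call. A fit of the control and NrasG12D mice alone gave 0.80 with an adjusted p of 0.0183, where 1.45% of the genes passed, and with the block the adjusted p was 0.0948. In NPmut against control mice the log2 fold change was -0.02 (SE 0.268, adjusted p = 0.978). These comparisons share the control mice.

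**Figure D2:**
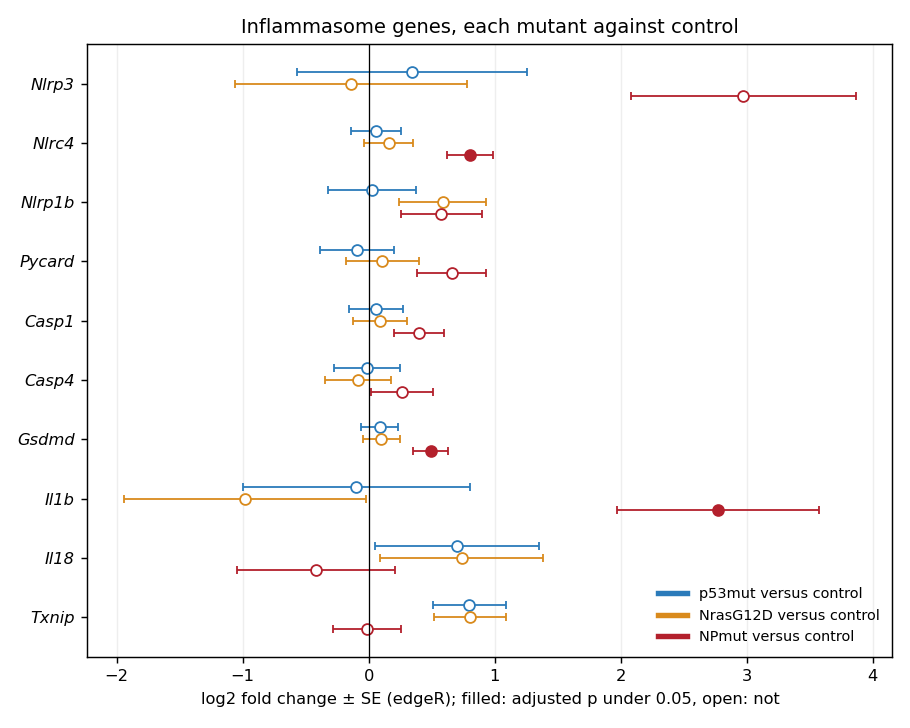
Log2 fold change ± SE (edgeR) of each gene in p53mut, NrasG12D, and NPmut against control mice, with filled circles for an adjusted p under 0.05. Nlrp3 (2.97) and Il1b (2.77) lie far to the right in NPmut mice alone, Nlrc4, Gsdmd, and Il1b are filled, and Txnip is at 0.80 in both single mutants and at -0.02 in NPmut mice.

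Counted together, 3 of the 10 members passed in NPmut against control mice, all higher, where 10.9% of all genes tested passed in either direction and 5.38% passed as higher. The members were chosen with earlier results of these data known, so that the shares of all genes are not an unbiased comparison. One member, Il1b, was past both thresholds, against 6.01% of all genes. Groups did not overlap for 3 members, Nlrp3, Nlrc4, and Gsdmd, all with NPmut mice above, against 10.4% of all genes with NPmut mice above. The median log2 fold change of the members was 0.53, beside 0.01 over all genes. With DESeq2, 2 members, Nlrp3 and Il1b, were past both thresholds, and with background reads as a covariate 0 members passed, where 578 genes were still past both thresholds.

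In p53mut against control mice 0 of the 10 members and 0 of all genes passed (0%), while 1 member, Txnip, and 415 genes (2.33%) had an unadjusted p under 0.05. DESeq2 put 0 members and 2 genes past both thresholds. With NrasG12D mice 0 members and 1 gene (0.00562%) passed, and 1 member, Txnip, and 1642 genes (9.23%) had an unadjusted p under 0.05. Here DESeq2 put 0 members and 74 genes past both thresholds. The median log2 fold change of the members was 0.06 in p53mut and 0.10 in NrasG12D mice. Apart from Txnip, the log2 fold changes in p53mut mice ran from -0.10 for Il1b to 0.70 for Il18, and in NrasG12D mice from -0.98 for Il1b to 0.74 for Il18. Il1b was at 0.405, 0.131, and 0.388 CPM in NrasG12D mice, from 7, 2, and 6 counts, below every control mouse. For p53mut mice 1 member was above control without overlap (background 5.47%), and for NrasG12D mice 2 members were above (10.9%) and 1 was below (10.2%).

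NPmut mice were also compared with each single mutant. Il1b was higher than in NrasG12D mice by 3.75 on the log2 scale (SE 0.879, adjusted p = 0.017) and higher than in p53mut mice by 2.87 (SE 0.819, adjusted p = 0.0396). Nlrc4 was higher by 0.65 (SE 0.183, adjusted p = 0.0393) and 0.74 (SE 0.184, adjusted p = 0.019). These 2 members passed in each comparison, where 8.88% of all genes passed against NrasG12D and 9.95% against p53mut mice. Nlrp3 differed by 3.12 (SE 0.906, adjusted p = 0.0574) and 2.63 (SE 0.882, adjusted p = 0.0894), which did not pass. Txnip showed log2 fold changes of -0.82 (adjusted p = 0.0736) and -0.81 (adjusted p = 0.0721), and passed in both without NPmut mouse 3 (-1.15, adjusted p = 0.00271 and 0.00243).

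The calls of Il1b and Nlrc4 against the single mutants also depended on single mice. Against NrasG12D mice, Il1b was lost without any 1 NrasG12D mouse (adjusted p = 0.0594 to 0.083), and Nlrc4 without any 1 NrasG12D mouse (0.066 to 0.18), NPmut mouse 1 (0.103), or NPmut mouse 3 (0.0508). Against p53mut mice, Il1b was lost without any 1 p53mut mouse (0.0916 to 0.133) or NPmut mouse 1, 2, or 4 (0.0545 to 0.0836), and Nlrc4 without p53mut mouse 1 (0.0853) or 3 (0.109) or NPmut mouse 1 (0.06). With the compared groups alone in the fit, Il1b and Nlrc4 were lost against NrasG12D (0.0675 and 0.122) and against p53mut mice (0.136 and 0.0686). Nlrc4 was also lost against NrasG12D mice with library totals (0.0779) and against p53mut mice with the covariate (0.0986), and Il1b against p53mut mice with the covariate (0.301) and the replicate block (0.105).

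Whether both alleles together gave more or less than the sum of each was tested with the interaction term, NPmut minus p53mut minus NrasG12D plus control on the log2 scale. For Txnip the single mutants summed to 1.60, while NPmut mice were at -0.02, and the interaction was -1.62 (SE 0.392, unadjusted p = 0.00113, adjusted p = 0.056). For Il1b the sum was -1.08 against 2.77 in NPmut mice, with an interaction of 3.85 (SE 1.25, adjusted p = 0.138), and for Nlrp3 0.20 against 2.97, with an interaction of 2.77 (unadjusted p = 0.0496, adjusted p = 0.31). No member passed, where 1.74% of all genes did, while 4 members and 16.1% of all genes had an unadjusted p under 0.05. DESeq2 called 2 members, Txnip (adjusted p = 0.00191) and Il1b (0.0239), and without NPmut mouse 3 both passed in edgeR as well (0.00322 and 0.0088). Txnip also passed without p53mut mouse 2 (0.0446), and Il1b without a filter on low counts (9.91e-05).

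**Figure D3:**
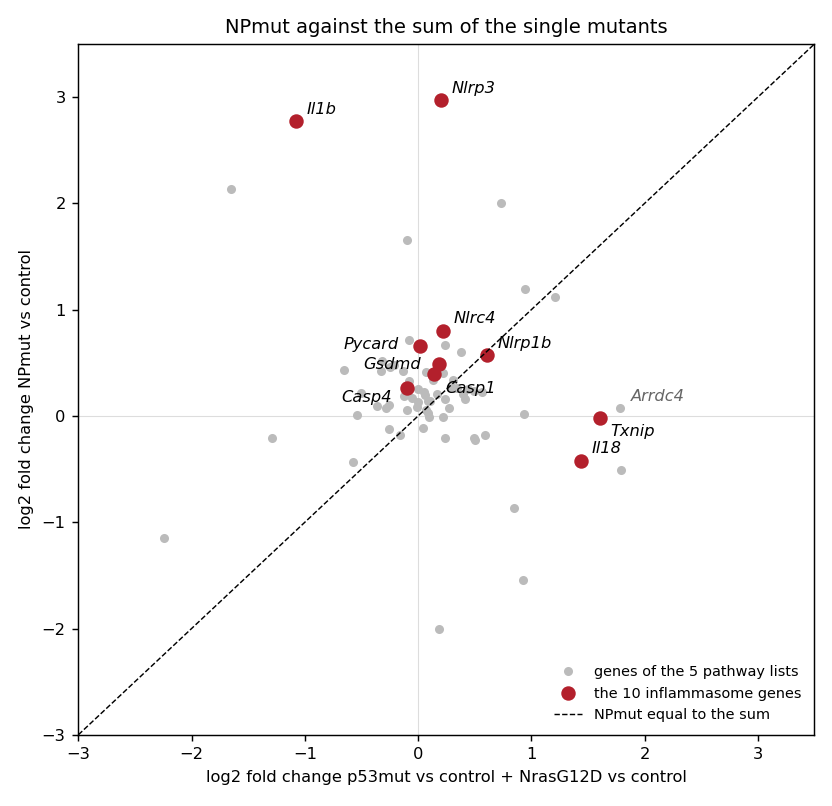
Log2 fold change in NPmut against control mice (vertical) and the sum of those in p53mut and NrasG12D mice (horizontal), with the 10 genes in red, the genes of 5 lists of related genes in gray, and a dashed line where both are equal. Nlrp3 and Il1b lie far above the line, Txnip (1.60, -0.02) and its relative Arrdc4 (1.79, 0.08) lie below it, as does Il18, and the other members lie closer to it.

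Markers of some cell types also differed between control and NPmut mice. The summed level of 11 monocyte and macrophage markers was 623 to 718 CPM in control, 557 to 1031 in p53mut, 513 to 792 in NrasG12D, and 1513 to 2587 in NPmut mice, where 6 of the 11 passed as higher and 0 as lower. Csf1r, the receptor for M-CSF, was at 51.9 to 60.4 CPM in control and 121 to 184 CPM in NPmut mice. Neutrophil and granulocyte-monocyte progenitor markers summed to 11750 to 14730 CPM in control and 13710 to 23070 CPM in NPmut mice, with 1 of 10 tested markers passing as higher. Mpo alone made up most of that sum, with 9690 to 12180 CPM in control and 10640 to 17940 CPM in NPmut mice. F13a1 was a large part of the monocyte sum, with 322 to 389 CPM in control and 903 to 1188 CPM in NPmut mice. The sums thus weigh the most abundant markers. Megakaryocyte markers summed to 95.3 to 152 CPM in control and 11.4 to 62.0 CPM in NPmut mice, with 4 of 4 tested passing as lower. Erythroid markers summed to 134 to 192 CPM in control and 17.1 to 98.5 CPM in NPmut mice (2 of 7 lower). Of 7 stem and progenitor markers 1 passed as higher and 3 as lower, and of 5 tested dendritic cell markers 3 as higher and 1 as lower. The B cell markers (4 of 6 tested) and T or NK cell markers (3 of 8 tested) passed in neither direction. Monocytes use Nlrp3, Nlrc4, Gsdmd, and Il1b, and the part of cell composition in the differences of these genes was not tested. In bulk RNA more cells of a type and more RNA per cell cannot be told apart. Within the NPmut group, mouse 3, the one with low Il1b, had a monocyte sum of 1668 CPM, between those of mouse 4 (1513) and mouse 1 (1887). Mouse 3 had the highest NPmut sums of megakaryocyte (62.0 CPM), mast cell and basophil (61.1 CPM), and stem and progenitor markers (1074 CPM). Its erythroid sum of 76.6 CPM was below that of mouse 4 (98.5 CPM). The part of these differences in its Il1b level was not tested.

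Mice of the NPmut group did not share 1 profile over the members. Mice 1 and 4 had the largest log2 differences of Nlrp3 from the control mean, 3.96 and 4.00, mouse 2 the largest of Il1b (3.25), Pycard (1.37), Casp1 (0.92), and Gsdmd (0.75), and mouse 3 the smallest of Nlrp3 (1.71) with Il1b at -1.15. Without mouse 2, which stood apart, the log2 fold changes in NPmut against control mice were 0.31 for Pycard and 0.17 for Casp1, 0.39 for Gsdmd (adjusted p = 0.0533), 2.44 for Il1b (0.0794), 3.06 for Nlrp3 (0.104), and 0.83 for Nlrc4 (0.0117), which was the 1 member that still passed. Pycard and Casp1 varied together, with Pearson's r of 0.94 on log2 CPM over 13 mice and 0.93 for deviations from group means. Il1b and Txnip varied in opposite directions, with r of -0.74 and -0.67. Nlrp3 and Il1b had r of 0.61 over 13 mice but 0.17 for deviations from group means. These coefficients are descriptions, since mice of a group share genotype, treatment, and background level.

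**Figure D4:**
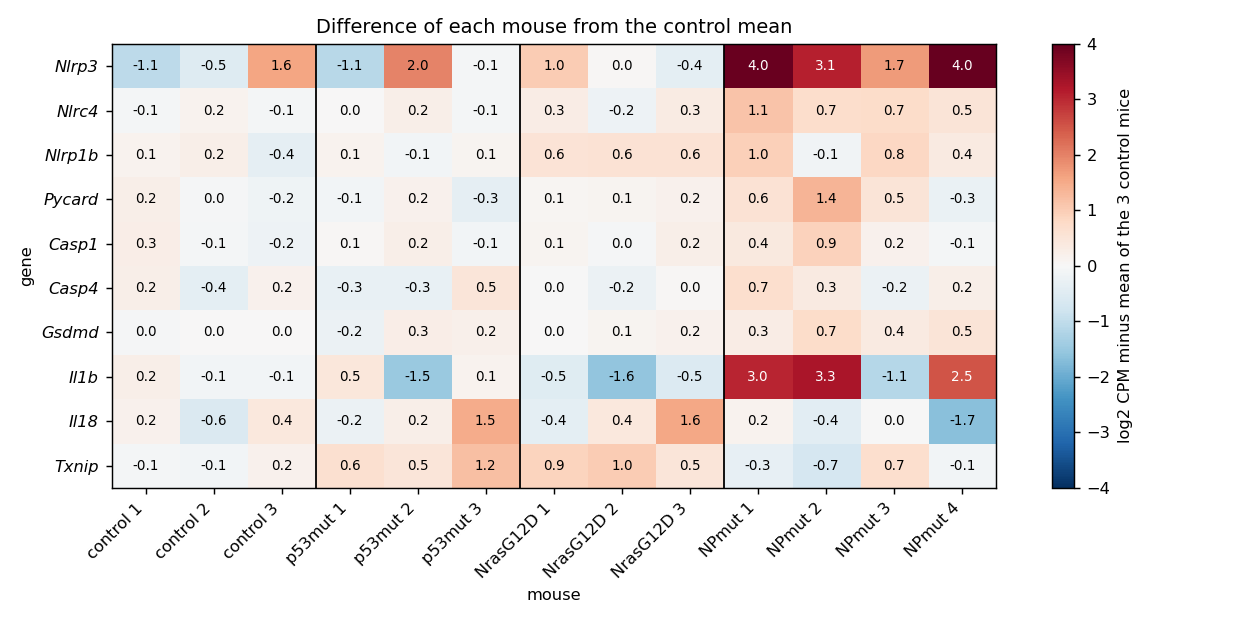
Log2 CPM of each gene in each mouse minus the mean of the 3 control mice, in red where higher and blue where lower, with vertical lines between groups. NPmut mice 1, 2, and 4 have Il1b at 3.04, 3.25, and 2.51, and NPmut mouse 3 has Il1b at -1.15 with Txnip at 0.68.

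Genes whose log2 CPM followed a member most closely over the 13 mice were listed among the 13239 genes whose mean log2 CPM was 1 or more. For Nlrp3 they were Acox3, a peroxisomal oxidase (r = 0.96), Vac14 (0.92), and Fbxw4 (0.91). Il1b was followed by Dusp3, a phosphatase (0.94), Scarna13 (0.93), and Nagk (0.90). The gene most like Gsdmd was Nudt4 (0.97), the one most like Nlrc4 was Pip4p1 (0.93), and those most like Pycard were Cap1, which regulates actin, and Cst3, a protease inhibitor (both 0.96). Txnip was followed by Cd59a, a complement inhibitor (0.96), Frmd4a (0.93), and Trim58 (0.91). Coefficients for Casp1, Casp4, Nlrp1b, and Il18 were at most 0.94, 0.90, 0.90, and 0.86.

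Among 15 other sensors, of which 14 were tested, 1 rose in NPmut against control mice and 0 fell, with a median log2 fold change of 0.24. Over all genes tested, 5.38% passed as higher and 5.54% as lower, so that 1 call in a list of this size is near the share of all genes. The gene that rose was Mefv, which encodes pyrin, an innate immune sensor. It was at 27.1, 35.3, and 28.9 CPM in control and at 107, 116, 62.5, and 97.6 CPM in NPmut mice, with no overlap. On the log2 scale it was higher by 1.66 (SE 0.316, adjusted p = 0.0056), and it was also higher than in NrasG12D (1.79) and p53mut mice (1.63, lost with background reads as a covariate, adjusted p = 0.0686). Nlrx1, a mitochondrial NLR, passed against NrasG12D (0.67, adjusted p = 0.0174) and Aim2, a sensor of cytosolic DNA, against p53mut mice (0.59, adjusted p = 0.0224). Both calls were lost with 1 mouse left out, Nlrx1 without NrasG12D mouse 1 (0.0902) or 2 (0.0611), and Aim2 without p53mut mouse 1 (0.104) or 3 (0.112) or NPmut mouse 1 (0.0522).

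Of 16 assembly partners and regulators, 13 were tested, and 2 rose and 1 fell in NPmut against control mice (median log2 fold change 0.14). Over all genes tested, 5.38% passed as higher and 5.54% as lower, and whether this list exceeds those shares was not tested. P2rx7, the ATP-gated channel that lets potassium out and triggers NLRP3, was at 6.68 to 7.35 CPM in control, 5.54 to 8.92 CPM in p53mut, 10.1 to 12.2 CPM in NrasG12D, and 23.9 to 33.6 CPM in NPmut mice. All NPmut mice were above all others, and all NrasG12D mice above all control mice. In NPmut mice P2rx7 was higher by 2.01 on the log2 scale than in control (SE 0.189, adjusted p = 5.48e-05), by 1.96 than in p53mut, and by 1.33 than in NrasG12D mice, and all of these passed. Pstpip1, which binds pyrin, rose by 0.67 on the log2 scale (SE 0.132, adjusted p = 0.0052). Gbp2, an interferon-induced GTPase that promotes caspase-11 and AIM2 inflammasomes, fell by 0.87 on the log2 scale (SE 0.194, adjusted p = 0.0111). It ranged from 11.6 to 14.5 CPM in control, 19.0 to 19.6 CPM in NrasG12D, and 4.58 to 8.25 CPM in NPmut mice, the only group not given pI-pC.

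The 13 other caspases and executors of cell death included 1 that rose and 1 that fell (median log2 fold change 0.13), near the shares of all genes. Mlkl, the pore former of necroptosis, rose by 0.52 on the log2 scale (SE 0.123, adjusted p = 0.0149). Casp12, a caspase of the inflammatory group, fell by 2.00 on the log2 scale (SE 0.363, adjusted p = 0.0033), from 3.83 to 4.43 CPM in control to 0.607 to 1.5 CPM in NPmut mice, and it is in a list of lower genes that the study chose on these mice, so that its direction is not independent evidence. Zbp1, an interferon-induced sensor of Z-form nucleic acids, was at 3.05 to 3.95 CPM in control, 7.18 to 15.6 CPM in NrasG12D, and 0.933 to 4.09 CPM in NPmut mice. Its difference between NPmut and NrasG12D mice passed (-2.20, SE 0.38, adjusted p = 0.0034). Against control mice NrasG12D mice differed by 1.70 (SE 0.411, adjusted p = 0.175) in the fit of all 13 mice, and by 1.63 (SE 0.27, adjusted p = 0.0182), past both thresholds, in a fit of these 6 mice with the replicate number as a block, where 1.04% of the genes passed. Same-numbered control and NrasG12D mice did not deviate together in all pairs, and the labels do not pair them, so that this block rests on numbering alone.

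Among 18 genes of the IL-1 and IL-18 pathway, 16 were tested, and 2 rose and 1 fell (median log2 fold change 0.21). The shares of all genes were 5.38% higher and 5.54% lower. Il1r1, the signaling receptor for IL-1, was at 14.0 to 19.8 CPM in control and 21.9 to 51.3 CPM in NPmut mice (log2 fold change 1.12, SE 0.252, adjusted p = 0.0117). In NrasG12D mice Il1r1 was at 28.0 to 29.7 CPM, above all control mice and within the NPmut range (NPmut against NrasG12D 0.26, adjusted p = 0.563), and it passed against control mice in the blocked fit of these 6 mice (0.87, adjusted p = 0.0198) but not in the fit of all 13 (0.86, adjusted p = 0.284). The limit of this block given for Zbp1 holds here too. NPmut mouse 3, the one with low Il1b, had the highest Il1r1. Il1rl1, the IL-33 receptor, fell by 1.54 on the log2 scale (SE 0.403, adjusted p = 0.0292), while mast cell and basophil markers summed to 38.5 to 65.7 CPM in control and 19.0 to 61.1 CPM in NPmut mice (1 of 5 higher, 1 lower), whose part in this fall was not tested. Irak1, a kinase downstream of both receptors, rose by 0.34 on the log2 scale (SE 0.0906, adjusted p = 0.0272). Il1r2, the decoy receptor, was at 5.51, 1.89, 0.536, and 3.31 CPM in NPmut mice and at 0.309 to 0.92 CPM in control mice, with NPmut mouse 3 again in the control range. Its log2 fold change of 2.13 did not pass against control (SE 0.693, adjusted p = 0.0621), but those of 3.32 against NrasG12D (adjusted p = 0.0159) and 2.59 against p53mut mice (adjusted p = 0.0369) did. Leaving out 1 mouse moved these Il1r2 values between 2.75 and 4.43 and between 2.00 and 2.94, and the calls were lost without NrasG12D mouse 1 (0.0856) or 2 (0.0791), and without any 1 p53mut mouse (0.0844 to 0.166) or NPmut mouse 1 (0.115) or 4 (0.0572). With background reads as a covariate the difference from p53mut mice was 0.61 (adjusted p = 0.735).

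The last list held 11 genes of α-arrestins and glucose sensing, of which 9 were tested, and 1 rose in NPmut against control mice (median log2 fold change 0.08). Over all genes 5.38% rose, so that 1 call in a list of this size is near the share of all genes. The gene that rose was Slc2a1, the glucose transporter GLUT1, whose uptake of glucose Txnip limits, and it rose by 0.72 on the log2 scale (SE 0.147, adjusted p = 0.0065). It was at 10.2 to 11.95 CPM in control and 15.7 to 20.3 CPM in NPmut mice. Arrdc4, a relative of Txnip and like it a MondoA target, was at 9.89 to 16.2 CPM in control, 19.8 to 24.03 CPM in p53mut, and 18.6 to 26.6 CPM in NrasG12D mice. All 6 single-mutant mice were above all control mice, as for Txnip. In NPmut mice it was at 11.1, 12.7, 19.8, and 9.08 CPM, with mouse 3 highest, again as for Txnip. Its log2 fold changes were 0.85 in p53mut (SE 0.26), 0.94 in NrasG12D (SE 0.26), and 0.08 in NPmut mice (SE 0.244), none of which passed. The blocked fit of control and p53mut mice gave 0.87 (SE 0.146, adjusted p = 0.0119), with the limit of this block given for Txnip. For Arrdc4 the interaction of -1.71 (SE 0.354, adjusted p = 0.0298) passed.

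Of the calls of listed genes in NPmut against control mice, those of P2rx7, Mefv, Pstpip1, Casp12, and Slc2a1 held with any 1 mouse left out. Gbp2 was lost without control mouse 1 (adjusted p = 0.0533) or 3 (0.0549), Mlkl without control mouse 1 (0.0501) or 3 (0.085), and Il1r1 without control mouse 2 (0.0568) or 3 (0.0663). Il1rl1 was lost without any 1 control mouse (0.072 to 0.103) or NPmut mouse 1 (0.0752) or 4 (0.0504), and Irak1 without any 1 control mouse (0.0624 to 0.0982) or NPmut mouse 4 (0.0506). The compared groups alone in the fit also lost Gbp2 (0.064), Mlkl (0.0632), Il1rl1 (0.0751), and Irak1 (0.103). Irak1 was lost with library totals (0.137), and Irak1 (0.0519) and Il1rl1 (0.103) without a filter on low counts. With background reads as a covariate only P2rx7 and Mlkl among these genes still passed, and the others had an adjusted p of 0.0627 for Pstpip1 to 0.219 for Il1rl1. The interaction of Arrdc4 was lost without control mouse 1 or 2, p53mut mouse 1 or 3, NrasG12D mouse 1 or 2, or NPmut mouse 1 (0.056 to 0.115).

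**Figure D5:**
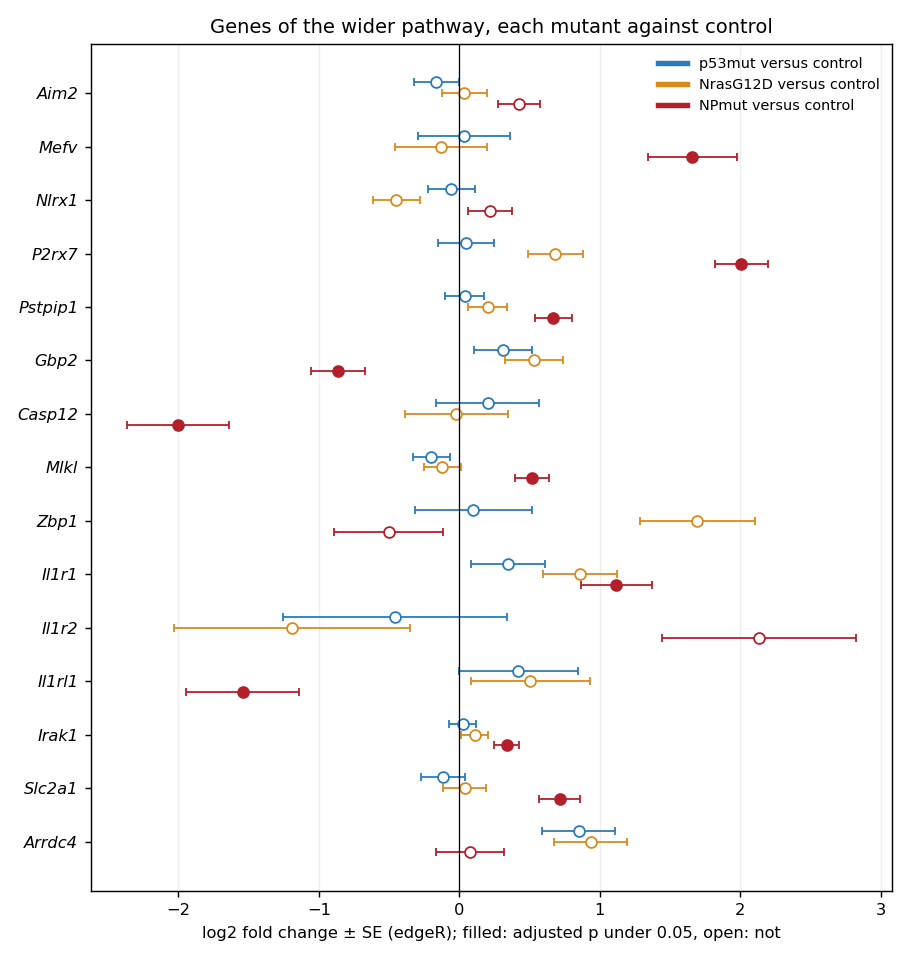
Log2 fold change ± SE (edgeR) of the genes of the 5 lists that passed in at least 1 comparison, in p53mut, NrasG12D, and NPmut against control mice, with filled circles for an adjusted p under 0.05. P2rx7 (2.01), Mefv (1.66), and Il1r1 (1.12) are the highest filled circles, Casp12 and Il1rl1 (-1.54) the lowest, and all filled circles belong to NPmut mice.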

How the data were processed

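RNA-Seq counts of Lin-cKit+ BM cells from 13 mice were used. Per the labels, the library kit was a stranded one for total RNA from few cells (SMARTer Pico Input). The submitters' processing notes name STAR 2.6.1d, R 3.6.1, DESeq2 1.26.0, and GRCm38.p6. The authors deposited whole-number counts, not normalized, for 54838 Ensembl genes, and the strand setting of the counting is not given in the sources used here. GENCODE M21 holds 54809 of the identifiers and gave names, exonic lengths, and coordinates, and the 29 others hold 0.0032% of the counts.

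One edgeR 4.0.16 quasi-likelihood model (R 4.3.3, robust, TMM factors, filterByExpr) was fitted to all 13 libraries with 1 mean per group, and SE is the absolute log2 fold change over the square root of F. Single mice were compared on log2 CPM with a prior count of 2. Each result was recomputed with RLE factors, DESeq2 1.42.0, library totals, no filter, at least 10 counts in every library, the compared groups alone, background reads as a covariate, the replicate number as a block, and each mouse left out in turn. The procedure was tested on simulated data.

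Control and p53mut mice with the same number correlated in their deviations from group means (0.152 to 0.166 in all 3 pairs), which no other groups did in all pairs, so the block was also fitted to these mice alone. It was thus picked from these same data. The block was fitted to control and NrasG12D mice alone as well, although their same-numbered pairs had r of -0.103, 0.115, and 0.0951. Nothing in the labels ties the number to a litter or batch.

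The members and lists were chosen with earlier results of these data known. From the lists, genes past both thresholds in any comparison are named, at most 6 a list, and Aim2, Nlrx1, Pstpip1, Mlkl, Irak1, and Slc2a1 were added after their values were seen. 1 listed gene is not reported here and was left out of its list.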

Additional observations from a re-analysis of the deposited data

Results flagged for a closer look

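In the 4 NPmut mice Gbp2 had 1 mouse apart from the rest: mouse 4 was at 4.58 CPM and the others at 8.04 to 8.25 CPM, a gap of 0.943 of the whole range, above Dixon's 95% critical value for 4 samples. This was looked for in 19 genes, and chance marks about 1 group in 20.

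For 5 genes of the lists the interaction term of the edgeR fit passed, which compares the difference NrasG12D made with mutant p53 and without it. The 5 lists held 14, 13, 13, 16, and 9 tested genes, and 309 of all 17795 genes tested (1.74%) passed this term. The log2 interaction was -1.71 for Arrdc4 (adjusted p = 0.0298), -2.18 for Casp12 (0.0483), -1.71 for Gbp2 (0.0098), 0.84 for Mlkl (0.0358), and 1.28 for P2rx7 (0.0313). With single mice left out, the call of Gbp2 held in every case, while those of the other 4 were each lost on leaving out any 1 of 7 to 10 of the 13 mice (adjusted p up to 0.115 for Arrdc4, 0.14 for Casp12, 0.121 for Mlkl, and 0.0982 for P2rx7). The NPmut mice alone had no pI-pC and were moribund, which cannot be told apart from the interaction of the alleles.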

How the results depend on the processing

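In NPmut against control mice, members past both thresholds numbered 1, but 2 with DESeq2 and 0 with the replicate block, with background reads as a covariate, or with the compared groups alone, and 0 to 2 with single mice left out. Members at an adjusted p under 0.05 numbered 3, but 0 with the covariate and 1 with the compared groups alone (1 to 4 with mice left out). All genes past both thresholds numbered 1069, but 638 with at least 10 counts in every library, 578 with the covariate, and 651 with the compared groups alone (586 to 1252). Of these, 38.6% were higher, against 28.2% with library totals, 49.8% with at least 10 counts, and 59.2% with the covariate. Library totals put the median of all genes at -0.108 in place of 0.014.

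Against NrasG12D mice, 1 member was past both thresholds and 2 with DESeq2 (0 to 3 with mice left out), and 2 passed, but 4 with DESeq2 and 1 with library totals or the compared groups alone (0 to 3). All genes numbered 785, and 440 with the compared groups alone (444 to 991). Against p53mut mice, 1 member was past both thresholds, but 2 with DESeq2 and 0 with at least 10 counts, the replicate block, or the compared groups alone (0 to 3), and 2 passed, but 4 with DESeq2, 1 with at least 10 counts or the covariate, and 0 with the compared groups alone (0 to 4). All genes numbered 933, but 597 with at least 10 counts, 616 with the covariate, and 478 with the compared groups alone (433 to 1152), with 40.9% higher, against 51.8% with the covariate.

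For the interaction, 0 members passed, but 1 without a filter and 2 with DESeq2, at both thresholds alike (0 to 2 with mice left out). All genes numbered 239, but 651 without a filter, 602 with DESeq2, and 366 with the replicate block (61 to 531), with 30.1% higher, against 47.3% without a filter and 40.4% with DESeq2.

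In p53mut against control mice, Txnip was the 1 member that passed in the blocked fit of these mice alone, short of a 2-fold change. At an adjusted p under 0.05 alone, 56 genes passed in that fit. All genes past both thresholds numbered 0, but 9 without a filter, 2 with DESeq2, 1 with the compared groups alone, and 25 with the block (0 to 1 with mice left out). In NrasG12D mice, Txnip was the 1 member that passed with the compared groups alone, again short of a 2-fold change, where 239 genes passed at an adjusted p under 0.05 alone. All genes past both thresholds numbered 1, but 3 with RLE factors, 0 with library totals or the covariate, 159 without a filter, 74 with DESeq2, 28 with the replicate block, 81 with the compared groups alone, and 61 with the block in these alone (0 to 2). The replicate block ended 2 member calls, those of Il1b against control and p53mut mice. The cause of these differences was not tested, beyond the fewer mice or genes that some alternatives hold by construction.

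Differences that changed sign were all uncalled. With background reads as a covariate these were Casp4 in NPmut against control (-0.619) and p53mut mice (-0.361), Txnip in NPmut against control mice (0.071), and Nlrp1b (-0.010) and Pycard (0.117) in p53mut mice. They were also Txnip without a filter (0.024), Nlrp1b in p53mut mice with library totals (-0.003), Nlrp1b in NPmut against NrasG12D mice with the block (0.015), and Nlrp3 in NrasG12D mice with the block in the compared groups (0.201). With single mice left out, p53mut against control ran from -0.035 to 0.217 for Casp1, -0.322 to 0.121 for Casp4, -0.009 to 0.230 for Gsdmd, -0.062 to 1.026 for Il18, -0.499 to 0.338 for Il1b, -0.041 to 0.138 for Nlrc4, -0.146 to 0.145 for Nlrp1b, -1.008 to 1.664 for Nlrp3, and -0.231 to 0.035 for Pycard. NrasG12D against control ran from -0.004 to 0.262 for Casp1, -0.263 to 0.047 for Casp4, -0.016 to 1.121 for Il18, and -0.664 to 1.171 for Nlrp3. Txnip in NPmut against control mice ran from -0.349 to 0.146, and Nlrp1b from -0.177 to 0.174 against NrasG12D mice and -0.199 to 0.148 in the interaction.

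Il1b had fewer than 10 counts in 6 mice. Il18 had 8 counts in control mouse 2, 9 in p53mut mouse 1, and 2 in NPmut mouse 4. Neither gene therefore has a value under the filter of 10 counts in every library. Il18, Il1b, and Nlrp1b rest on few counts, and their log2 fold changes have SE of 0.32 to 1.25.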
